A study of Mus musculus with 5 samples.

Results

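Fbxo3, Fbxl2, Fbxl7 and Fbxl19 are 4 F-box genes that have been studied for their part in inflammation, and their levels were read in 5 mouse samples on Affymetrix expression arrays. They were taken by gene symbol from the deposited sheet of F-box genes, taking the first symbol where several stood, and gave 11 of the 130 probe sets and 4 of the 71 genes on the sheets for cullins and F-box proteins. Fbxo3 was read by 5 probe sets, Fbxl7 by 4, and Fbxl2 and Fbxl19 by 1 each. The samples were left ventricle tissue, isolated cardiomyocytes (CM) and non-failing cardiac fibroblasts from the hearts of C57Bl/6N mice, lung fibroblasts from the same strain, and failing cardiac fibroblasts from mice labelled beta1-adrenergic transgenic and in heart failure. Left ventricle, CM and lung fibroblasts were titled wild type, whereas the title of the non-failing cardiac fibroblasts gave no genotype. All animals were male and 6 months old, and each sample was a pool from 5 mice. The labels and methods do not state the promoter of the transgene, the purity of the isolated cells or their time in culture. With 1 sample per condition, replicate errors cannot be given, and the differences below are descriptions without a test. For Fbxo3 and Fbxl7 the standard deviation (SD) over the probe sets shows the spread within 1 array only, not that between animals.

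SCF ligases attach ubiquitin to other proteins, which can send these to the proteasome for breakdown. Each of them is built on the scaffold Cul1, and its F-box protein, held by Skp1, chooses which protein is bound. In lung epithelial cells, Fbxo3 has been described as the receptor that marks Fbxl2, itself a receptor, for degradation. Fbxl2 in turn targets TRAF proteins, the adaptors that carry signals from cytokine and Toll-like receptors, so that loss of Fbxl2 favours cytokine release. Fbxl7 targets Aurora A and survivin, regulators of mitosis and cell survival, and Fbxl19 targets the receptor for interleukin-33. These relations are between proteins, whereas only RNA was measured here.

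The deposited log2 levels were spread differently in the 5 samples. The median of the 130 probe sets was 4.76 in left ventricle and from 6.22 to 6.67 in the other samples, and its lowest value was -3.32 in left ventricle but 4.82 in non-failing cardiac fibroblasts. Of the linear values in left ventricle, 99.2 percent had at most 1 decimal, against 5.38 to 13.1 percent in the other samples. Background signal was not given for any probe set. Of 21 marker genes of cardiomyocytes, fibroblasts and other cell types, 0 were on the sheets, which name only cullin and F-box genes. Markers were not looked for in the further rows of the deposited whole-array table, so the labelled cell types were not checked. In these bulk samples, fewer cells of a type and less RNA per cell cannot be told apart.

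Promoter windows from RefSeq on mouse build GRCm38.p6, 250 bases before to 50 after a gene start, were found for Fbxl2, Fbxl7 and Fbxl19, but not for Fbxo3. The windows of the first pair are shown because these genes were both lower in CM and in lung fibroblasts than in non-failing cardiac fibroblasts. That of Fbxl19, the first of 2, is shown because its level ran the other way, by 1.24 in CM and 0.38 in lung fibroblasts. They lie at chr9:114026702-114027001 on the minus strand, chr15:26895515-26895814 on the minus strand and chr7:127746028-127746327 on the plus strand. Capitals mark the GC box, searched as GGGCGG on both strands.
Fbxl2: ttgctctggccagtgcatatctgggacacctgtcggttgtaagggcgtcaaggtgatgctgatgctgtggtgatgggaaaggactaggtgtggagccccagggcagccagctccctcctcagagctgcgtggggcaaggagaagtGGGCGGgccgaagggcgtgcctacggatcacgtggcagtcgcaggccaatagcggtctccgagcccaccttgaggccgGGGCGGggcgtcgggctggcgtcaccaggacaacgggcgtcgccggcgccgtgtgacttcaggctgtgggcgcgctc
Fbxl7: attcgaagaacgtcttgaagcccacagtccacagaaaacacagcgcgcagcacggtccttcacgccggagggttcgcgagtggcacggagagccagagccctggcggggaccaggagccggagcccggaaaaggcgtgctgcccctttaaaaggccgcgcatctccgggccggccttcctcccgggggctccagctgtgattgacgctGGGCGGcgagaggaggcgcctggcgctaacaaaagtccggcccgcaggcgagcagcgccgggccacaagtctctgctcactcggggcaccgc
Fbxl19: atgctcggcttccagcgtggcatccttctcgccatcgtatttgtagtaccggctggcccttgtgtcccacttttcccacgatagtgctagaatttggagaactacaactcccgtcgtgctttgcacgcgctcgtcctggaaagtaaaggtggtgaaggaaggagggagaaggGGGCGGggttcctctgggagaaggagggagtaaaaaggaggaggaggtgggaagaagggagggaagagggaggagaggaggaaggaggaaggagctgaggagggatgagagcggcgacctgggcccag
Fbxl2 had 2 GC boxes, Fbxl7 and the printed window of Fbxl19 had 1 each, and 35.7 percent of all 32851 windows held at least 1. The 3 printed windows had 66.7, 67.7 and 58.0 percent G and C and 24, 31 and 14 CpG dinucleotides, against medians of 52.7 percent and 7 over all windows. The E-box CACGTG, which reads the same on both strands, stood once in Fbxl2 and in 7.15 percent of all windows. The TATA box TATAAA was searched on both strands and not found in the printed windows, and 13.6 percent of all windows held it. All 3 printed windows thus lay above the medians in G and C and in CpG dinucleotides. A relation of this to the levels was not tested.

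Fbxo3, the receptor of Fbxl2, had a mean level on the log2 scale of 7.86 in non-failing cardiac fibroblasts, 6.56 in CM, 6.42 in failing cardiac fibroblasts, 5.79 in lung fibroblasts and 5.19 in left ventricle. The SD over its 5 probe sets was 1.32, 1.53, 0.94, 1.94 and 2.51 in the same order. No step between neighbours in this order was larger than the SD of the differences over the probe sets. This mean joined probe sets that ranked the samples differently. Probe set 1431078_at read 9.40 in non-failing cardiac fibroblasts, 7.57 in failing ones, 5.31 in left ventricle, 4.75 in lung fibroblasts and 4.74 in CM. Probe set 1441019_at read 8.32, 6.51, 1.58, 3.24 and 5.16 and probe set 1423491_at 8.52, 6.81, 6.13, 6.02 and 7.06 in the same order of samples. These 3 probe sets were highest in non-failing cardiac fibroblasts. Probe set 1423490_at ran the opposite way, with its lowest value of 6.07 in non-failing cardiac fibroblasts, then 6.19 in failing cardiac fibroblasts, 6.53 in lung fibroblasts and 8.05 in CM, and its highest of 8.48 in left ventricle. Probe set 1455047_at was highest in lung fibroblasts at 8.43, then CM at 7.80, non-failing cardiac fibroblasts at 7.0, failing ones at 5.00, and left ventricle at 4.48. RefSeq lists 7 transcripts of Fbxo3, 6 of them curated coding ones, and which of them each probe set reads is not given in the files. The probe set 1431078_at carried no symbol in a second annotation column of the sheet, whereas the other 4 were named Fbxo3 there too.

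Fbxl2, the leucine-rich repeat receptor for TRAF proteins, was read by probe set 1428427_at at 7.33 in failing and 7.11 in non-failing cardiac fibroblasts, 6.03 in lung fibroblasts, 3.92 in left ventricle and 1.82 in CM. The 3 fibroblast samples were thus all higher than both the tissue and the isolated CM. On the linear scale these levels were 161.28, 138.52, 65.27, 15.1 and 3.52. With a single probe set no spread can be given for any step.

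Fbxl7, the receptor for Aurora A, had a mean level of 7.36 in non-failing cardiac fibroblasts, 6.88 in failing ones, 5.87 in lung fibroblasts, 5.05 in CM and 3.70 in left ventricle, with an SD over 4 probe sets of 1.02, 0.92, 1.61, 2.12 and 3.59. The order of the means placed both cardiac fibroblast samples first, but no step exceeded the SD of the differences over the probe sets. Probe set 1439890_at spanned the widest range of the 11, from -1.0 in left ventricle to 8.77 in non-failing cardiac fibroblasts, with 7.77 in failing cardiac fibroblasts, 6.58 in lung fibroblasts and 6.25 in CM. Its left ventricle value was 0.5 on the linear scale. Probe set 1440441_at spanned the narrowest, from 5.56 in left ventricle over 6.39 in non-failing cardiac fibroblasts, 6.41 in lung fibroblasts and 6.60 in CM to 6.75 in failing cardiac fibroblasts. Probe set 1456220_at was close in left ventricle, non-failing and failing cardiac fibroblasts, at 7.26, 7.34 and 7.35, and low in lung fibroblasts at 3.48 and in CM at 1.96. Probe set 1458485_at read 7.01 in lung fibroblasts, 6.93 in non-failing cardiac fibroblasts, 5.65 in failing ones, 5.40 in CM and 2.98 in left ventricle. The 4 probe sets placed left ventricle lowest in 3 cases and nearly level with the cardiac fibroblasts in the fourth.

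Fbxl19, which also carries a zinc finger that binds unmethylated CpG, was read by probe set 1435922_at at 7.0 in CM, 6.87 in failing cardiac fibroblasts, 6.14 in lung fibroblasts, 5.76 in non-failing cardiac fibroblasts and -1.32 in left ventricle. It was the only one of the 4 genes with its highest level in CM. The left ventricle value was 0.4 on the linear scale, against 128.19 in CM, and whether it lay above background is unknown.

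**Figure D1:**
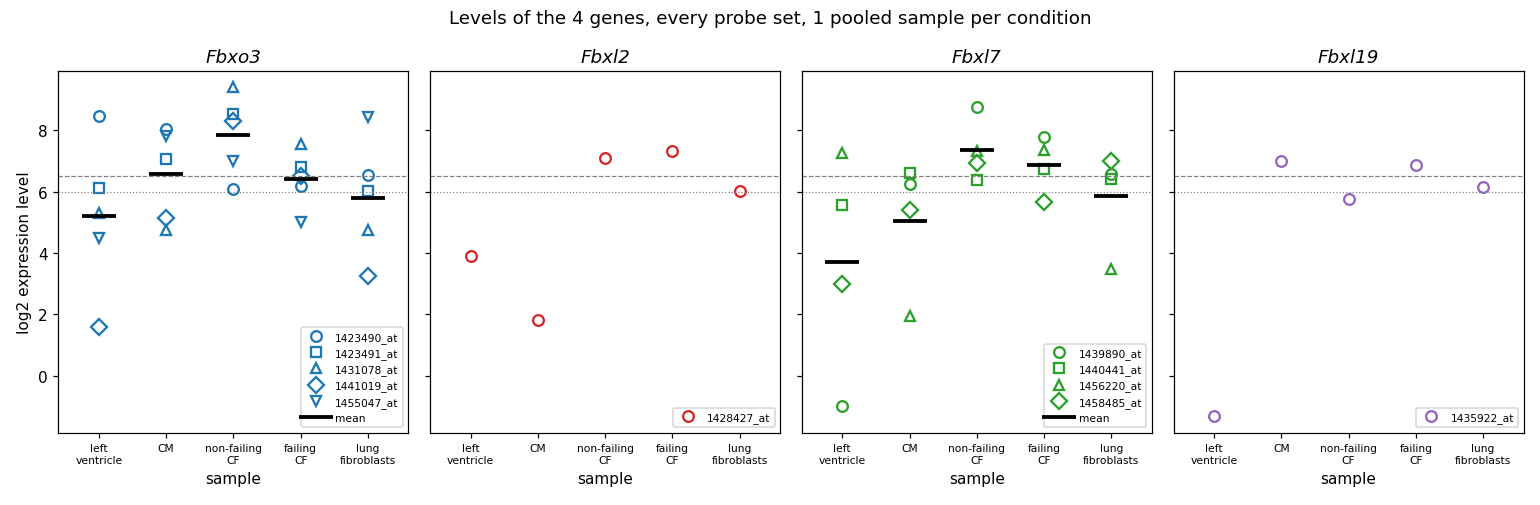
Log2 expression level (y axis) of Fbxo3, Fbxl2, Fbxl7 and Fbxl19 in the 5 samples (x axis; CF, cardiac fibroblasts), with 1 symbol per probe set, a black bar for the mean of several probe sets, and lines at 6.0 (dotted) and 6.5 (dashed). Fbxl2 was low in CM at 1.82, Fbxl19 was low in left ventricle at -1.32, and the 5 probe sets of Fbxo3 spread from 1.58 to 8.48 in left ventricle.

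The methods read a log2 level of 6.0 as enough for protein synthesis of note and one over 6.5 as a sign of strong expression of the protein, a rule credited there to the manufacturer, although proteins were not measured on the arrays. Mean levels over 6.5 were found in CM for 2 of the 4 genes, Fbxo3 at 6.56 and Fbxl19, beside 43.7 percent of all 71 genes. In non-failing cardiac fibroblasts they were found for Fbxo3, Fbxl2 and Fbxl7 (64.8 percent of all genes) and in failing cardiac fibroblasts for Fbxl2, Fbxl7 and Fbxl19 (54.9 percent). None of the 4 passed in lung fibroblasts (39.4 percent) or in left ventricle (28.2 percent). By single probe sets, 8 of 11 exceeded 6.5 in each of the cardiac fibroblast samples, 5 in CM, 4 in lung fibroblasts and 2 in left ventricle. Of all 130 probe sets, 53.1 and 50.8 percent did so in non-failing and failing cardiac fibroblasts, 47.7 percent in CM, 47.7 percent in lung fibroblasts and 32.3 percent in left ventricle. The mean of Fbxo3 in CM passed the rule by less than the SD of its probe sets, and 3 of its 5 probe sets exceeded 6.5 there.

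Of the 11 probe sets, 4 had their highest value in non-failing cardiac fibroblasts, 3 in failing ones, 2 in lung fibroblasts and 1 each in CM and left ventricle. Over all 130 probe sets, 24.6 and 26.9 percent were highest in non-failing and failing cardiac fibroblasts, 12.3 percent in lung fibroblasts, 20.8 percent in CM and 15.4 percent in left ventricle. Left ventricle held the lowest value for 6 of the 11 and CM for 3, beside 48.5 and 19.2 percent of all probe sets. The low position of left ventricle was therefore near that of the sheets as a whole.

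Fbxl2 was 39.3-fold lower in CM than in non-failing cardiac fibroblasts, a difference of -5.30 on the log2 scale from its 1 probe set. The CM value was 3.52 on the linear scale, and whether it lay above background is unknown. Fbxl7 was 4.94-fold and Fbxo3 2.46-fold lower by their means, while Fbxl19 was 2.36-fold higher. Thus 3 of the 4 genes were at least 2-fold lower, beside 46.5 percent of all genes, and 1 was at least 2-fold higher, beside 21.1 percent. The median difference of the 4 genes was -1.80, against -0.51 over all 71. Fbxl7 differed by -2.31 with an SD of 2.34 over its probe sets, from -5.38 for 1456220_at through -2.52 for 1439890_at and -1.53 for 1458485_at to 0.21 for 1440441_at. Fbxo3 differed by -1.30 with an SD of 2.74, and its probe sets parted into 3 that were lower, by up to -4.66 for 1431078_at, and 2 that were higher, by up to 1.98 for 1423490_at. Without 1431078_at its mean difference was -0.46, and without 1441019_at it was -0.84. The lower call of Fbxo3 was also lost with equal medians of the samples, at -0.86. Its sign turned, as did that of Fbxl7, when the probe set with the highest mean over all 5 samples stood for the gene, at 1.98 and 0.21. That choice took in left ventricle, which is not in this pair, and where 1423490_at read 8.48 and 1439890_at -1.0.

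Fbxo3 was 2.73-fold lower in failing than in non-failing cardiac fibroblasts, a mean difference of -1.45 and an SD over 5 probe sets of 0.88. The difference came from 4 probe sets that lay close together, at -2.00 for 1455047_at, -1.84 for 1431078_at, -1.81 for 1441019_at and -1.71 for 1423491_at, whereas 1423490_at stood at 0.12. Over all 130 probe sets, 28.5 percent were at least 2-fold lower. Among the 13 genes with at least 3 probe sets, 3 had at least 3 that were 2-fold different in 1 direction between these samples. Over the 14 combinations of Fbxo3 or Fbxl7 with a pair of samples, this was the only one whose mean exceeded the SD of its probe sets. Of the 224 such combinations over all genes with several probe sets, 30.4 percent did so. That share also covers genes with 2 probe sets, where a mean passes its SD more readily than with 4 or 5. It is therefore no like-for-like background for Fbxo3 and Fbxl7. Fbxl19 was 2.15-fold higher in the failing sample, by 1.10 from 1 probe set. Fbxl2 differed by 0.22, and Fbxl7 by -0.48 with 2 probe sets higher and 2 lower. At least 2-fold lower was thus 1 of 4 genes, beside 22.5 percent of all genes, and at least 2-fold higher 1, beside 19.7 percent. The 4 genes had a median difference of -0.13, the same to 2 decimals as that of all genes. The lower mean of Fbxo3 was -2.25 with quantile normalization and -1.29 with equal medians, and from -1.84 to -1.31 when each probe set was left out in turn. It was 0.12 when the probe set with the highest mean over all 5 samples, 1423490_at, stood for the gene.

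**Figure D2:**
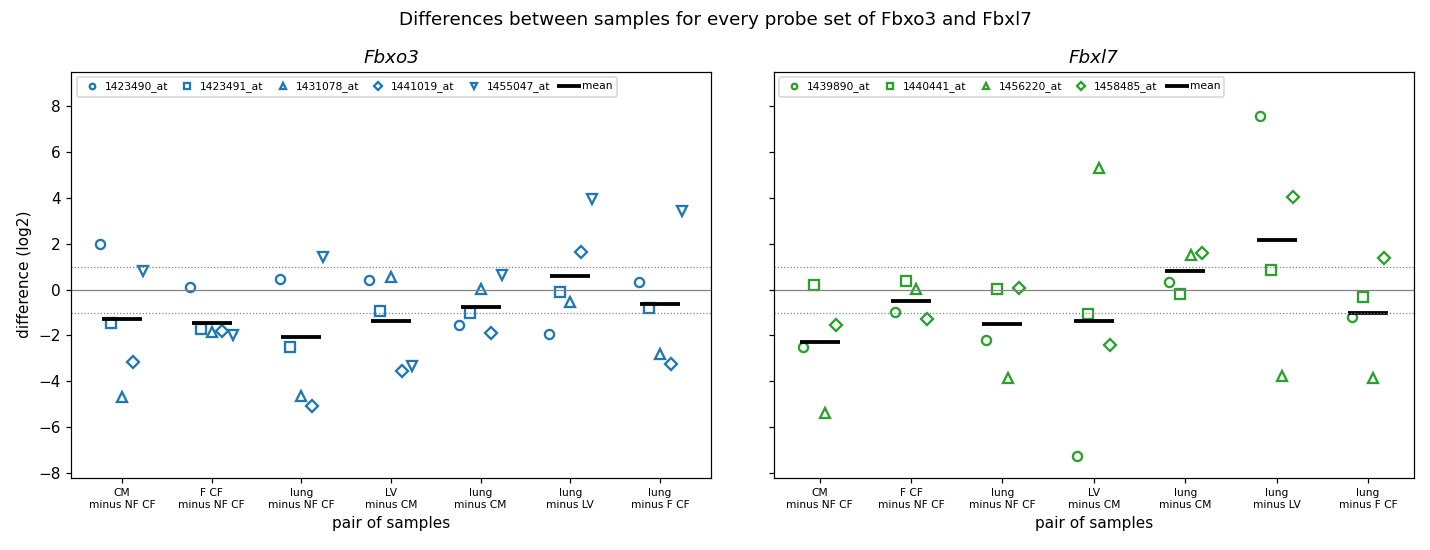
Difference on the log2 scale (y axis) for every probe set of Fbxo3 (left) and Fbxl7 (right) in 7 pairs of samples (x axis; LV, left ventricle; NF CF and F CF, non-failing and failing cardiac fibroblasts), with black bars for the mean and dotted lines at 2-fold. Of the probe sets of Fbxo3, 4 lay between -2.00 and -1.71 for failing minus non-failing cardiac fibroblasts, and in all 7 pairs both genes had probe sets on both sides of 0.

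Lung fibroblasts had lower means than non-failing cardiac fibroblasts for Fbxo3, by 4.2-fold, Fbxl7, by 2.8-fold, and Fbxl2, by 2.12-fold, and Fbxl19 differed by 0.38. These 3 genes of 4 stand beside 52.1 percent of all genes that were at least 2-fold lower, and the 0 of 4 that were at least 2-fold higher beside 14.1 percent. The median of the 4 genes was -1.29 and that of all genes -1.08. With quantile normalization Fbxl19 was higher by 2.47. Fbxo3 differed by -2.07 with an SD of 2.94, with 1441019_at at -5.08, 1431078_at at -4.65 and 1423491_at at -2.50, but 1423490_at at 0.45 and 1455047_at at 1.42. The 3 probe sets highest in non-failing cardiac fibroblasts thus carried the lower mean. Fbxl7 differed by -1.49 with an SD of 1.90, from 1456220_at at -3.85 and 1439890_at at -2.19, while 1440441_at and 1458485_at stood at 0.02 and 0.08. The call for Fbxl7 was lost with the median of its probe sets, at -0.64, and without 1456220_at, at -0.70, and that for Fbxl2 with equal medians, at -0.68, and quantile normalization, at -0.80.

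Against failing cardiac fibroblasts, lung fibroblasts were 2.47-fold lower for Fbxl2 and 2.01-fold lower for Fbxl7, so that 2 of 4 genes passed beside 45.1 percent of all genes, and 0 were at least 2-fold higher beside 19.7 percent. Fbxo3 differed by -0.62, with probe sets from -3.27 for 1441019_at to 3.43 for 1455047_at, and Fbxl19 by -0.72. The difference of Fbxo3 was 0.06 with quantile normalization. Fbxl7 lay just past the rule at -1.01, and its difference was -0.06 without 1456220_at, -0.77 with equal medians and -0.64 with quantile normalization. Fbxl2 kept the rule under both scalings, at -1.06 with equal medians and -1.15 with quantile normalization.

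Fbxl2 was 18.5-fold higher in lung fibroblasts than in CM, by 4.21 on the log2 scale, against the same low CM value of 3.52. It was the only one of the 4 genes past the rule, beside 35.2 percent of all genes that were at least 2-fold higher, and 0 were at least 2-fold lower beside 23.9 percent. Fbxl7 differed by 0.82 with 3 of 4 probe sets higher, Fbxo3 by -0.77 with 3 of 5 probe sets lower, and Fbxl19 by -0.86. The median of the 4 was 0.03 and that of all genes 0.02. For Fbxo3, the median of the probe sets gave -1.04 in place of the mean, and a lower call.

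Lung fibroblasts were higher than left ventricle for Fbxl19 by 7.47, for Fbxl7 by 2.17 and for Fbxl2 by 2.11 on the log2 scale, and Fbxo3 differed by 0.60. The 3 of 4 genes at least 2-fold higher stand beside 49.3 percent of all genes, and the 0 at least 2-fold lower beside 25.4 percent. The SD over probe sets was 4.83 for Fbxl7, with 1439890_at at 7.58 and 1456220_at at -3.78, and without 1439890_at its difference was 0.37. With equal medians Fbxl19 was higher by 5.96, whereas Fbxl2 and Fbxl7 differed by 0.60 and 0.66 and no longer passed. The sign of Fbxo3 turned to -0.91 with equal medians, -0.79 with quantile normalization and -1.95 with the probe set of the highest mean. Of the heart samples, only left ventricle and CM had a lower level of Fbxl2 than lung fibroblasts, and both cardiac fibroblast samples had a higher one.

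Left ventricle was lower than CM by -8.32 for Fbxl19, by -1.37 for Fbxo3 and by -1.35 for Fbxl7, and 4.29-fold higher for Fbxl2. At least 2-fold lower were 3 of 4 genes, beside 49.3 percent of all genes, and higher 1 of 4, beside 23.9 percent. The median of the 4 was -1.36 and that of all genes -0.98. The means of Fbxo3 and Fbxl7 had an SD of 1.99 and 5.17 over their probe sets, and for Fbxl7 the extremes were -7.25 for 1439890_at and 5.31 for 1456220_at. Fbxo3 no longer passed without 1441019_at, at -0.82, or without 1455047_at, at -0.88, and Fbxl7 without 1458485_at, at -0.996, or without 1439890_at, at 0.62. Both turned with the scaling, to 0.10 and 0.12 once medians were equal and 0.07 and 0.30 with quantile normalization, while Fbxl2 stayed higher, at 3.57 and 2.59, and Fbxl19 lower, at -6.86 and -4.16. Fbxl2 lay under 6.0 in both samples.

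**Figure D3:**
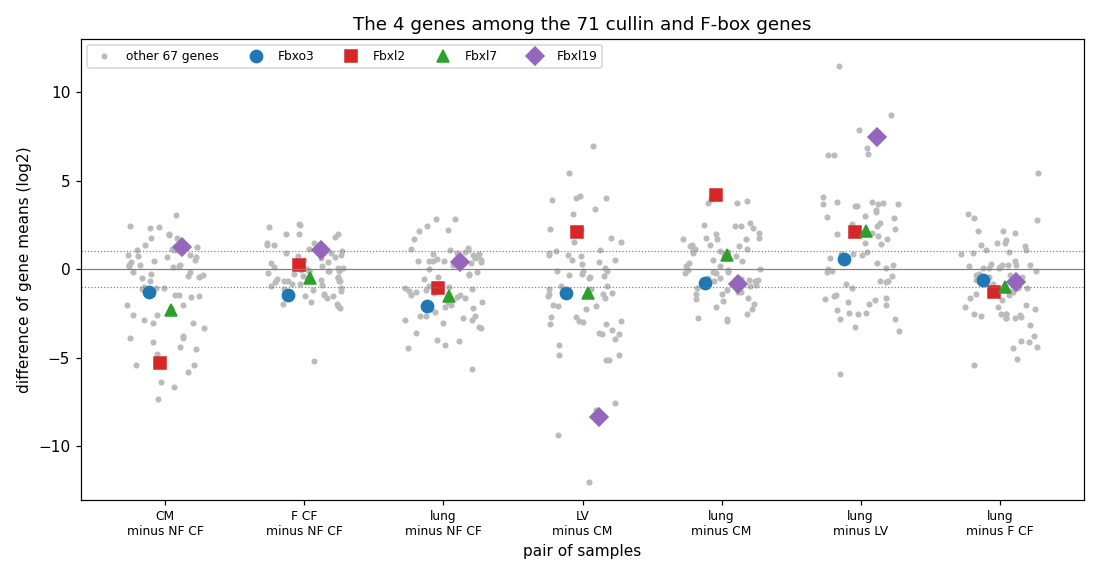
Difference of gene means on the log2 scale (y axis) for Fbxo3, Fbxl2, Fbxl7 and Fbxl19 (coloured symbols) among the other 67 genes (grey points) in 7 pairs of samples (x axis; LV, left ventricle; NF CF and F CF, non-failing and failing cardiac fibroblasts), with dotted lines at 2-fold. Fbxl2 stood at -5.30 for CM minus non-failing cardiac fibroblasts and Fbxl19 at -8.32 for left ventricle minus CM, both inside the range of the other genes.

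The 7 pairs share samples, and the 3 set against non-failing cardiac fibroblasts share that sample. The low CM level of Fbxl2 entered the pairs of CM with non-failing cardiac fibroblasts, lung fibroblasts and left ventricle, and the low left ventricle level of Fbxl19 entered both pairs with left ventricle. Scaling moved the size of these differences but not their side. With equal medians this was assured, since the shifts ran only from -0.58 for non-failing cardiac fibroblasts to 1.33 for left ventricle. Fbxl2 was lower in CM than in non-failing cardiac fibroblasts by -4.85 with equal medians and -3.71 with quantile normalization. Fbxl19 was higher in CM than in non-failing cardiac fibroblasts by 1.69 and 3.18, and in failing than in non-failing cardiac fibroblasts by 1.26 and 3.01.

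**Figure D4:**
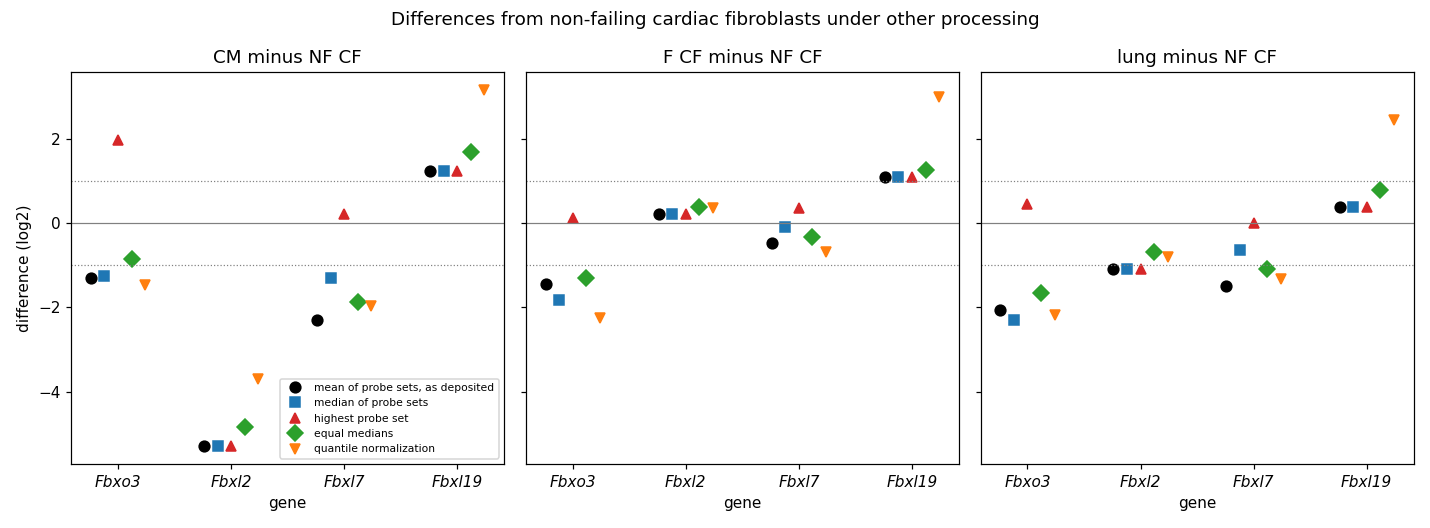
Difference from non-failing cardiac fibroblasts on the log2 scale (y axis) for the 4 genes (x axis) in CM, failing cardiac fibroblasts and lung fibroblasts, with 1 symbol for each way of summarising or scaling and dotted lines at 2-fold. With the probe set of the highest mean over all 5 samples, Fbxo3 stood at 1.98, 0.12 and 0.45 instead of -1.30, -1.45 and -2.07. Fbxl2 in CM stayed between -5.30 and -3.71.

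The genes of both sheets whose levels over the 5 samples lay nearest to each of the 4, after each gene was centred on its own mean, were found by the root mean square distance. For Fbxl7 they were Fbxw8, the F-box partner of Cul7, at 0.38 on the log2 scale, Fbxl15 at 0.56 and Fbxo42, a receptor for p53, at 0.57, against a median of 1.55 over the other 70 genes. For Fbxo3 they were Fbxw4 at 0.52, Fbxo45 at 0.64 and Fbxo6, which binds glycoproteins, at 0.65, against 1.41. For Fbxl2 they were Fbxw13 at 0.55, Cul9, a cullin that binds p53, at 0.86 and Fbxo42 at 1.21, against 2.20. For Fbxl19, Fbxo18, a DNA helicase now named Fbh1, stood at 0.62 and Fbxo38 at 1.12, against 2.82. Fbxw13 shared the low CM level of Fbxl2, at 1.14, and Fbxo18 the left ventricle level of -1.32 of Fbxl19. Such likeness follows from how these genes were chosen. The level of -1.32 came from 1 probe set per gene, with background unknown. Fbxo42 was near both Fbxl2 and Fbxl7. Of the 12 places, 3 for each of the 4 genes, 12 were kept by the same gene among the 3 nearest with equal medians and 8 with quantile normalization, over only 5 samples.

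Of 7 partners and relatives looked for, 4 were on the sheets. The further rows of the whole-array table were not searched for the others. Cul1, the scaffold of all SCF ligases, was read by 1 probe set at 9.38 in CM, 8.73 in lung fibroblasts, 6.31 and 5.63 in the non-failing and failing cardiac ones, and 0.0 in left ventricle, so that it was high in CM, where Fbxl2 was low. Fbxl20, the closest relative of Fbxl2, had means over 4 probe sets of 7.05 in CM, 6.55 in lung fibroblasts, 6.81 and 6.33 in the non-failing and failing cardiac ones, and 3.64 in left ventricle. It differed by 0.23 between CM and non-failing cardiac fibroblasts, with probe sets from -1.69 to 2.82, where Fbxl2 differed by -5.30. Fbxl18, a receptor that targets Fbxl7 in human cells, was read by 1 probe set at 6.43 in failing and 6.37 in non-failing cardiac fibroblasts, 5.89 in left ventricle, 4.36 in CM and 2.37 in lung fibroblasts. It was therefore lower in CM and lung fibroblasts than in both cardiac fibroblast samples, by -2.01 and -4.00 against the non-failing one. Fbxw11, a receptor for the inhibitor of NF-kappaB, had means of 7.87 in lung fibroblasts, 7.59 in failing cardiac fibroblasts, 7.53 in CM, 6.81 in non-failing cardiac fibroblasts and 6.18 in left ventricle over 5 probe sets. Its probe sets disagreed on this order. They differed by -4.33 to 5.60 between CM and non-failing cardiac fibroblasts, and by -5.16 to 5.38 between lung fibroblasts and left ventricle.

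Among the 17 Fbxl genes on the sheet, which include Fbxl2, Fbxl7 and Fbxl19, 8 were at least 2-fold lower and 4 higher in CM than in non-failing cardiac fibroblasts, beside 46.5 and 21.1 percent of all genes, with a median difference of -0.66. In lung fibroblasts 9 were lower and 3 higher, beside 52.1 and 14.1 percent, with a median of -1.09, which was the value of Fbxl2 itself. Between failing and non-failing cardiac fibroblasts 2 were lower and 4, with Fbxl19 among them, higher, beside 22.5 and 19.7 percent, with a median of 0.09. In CM and lung fibroblasts the share of lower genes in the family was thus near that of both sheets.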

How the data were processed

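Expression was measured in 5 mouse samples, 1 per condition and each pooled from 5 mice, on arrays that the methods name as the Affymetrix Mouse Expression Set, although the labels describe labelling with a whole-transcript kit, so that the chemistry behind the levels is uncertain. The authors deposited 2 sheets of log2 expression levels and a whole-array table of linear intensity with 45101 rows. For all 11 probe sets of the 4 genes, 2 raised to the log2 value gave the deposited intensity within 0.01. Neither labels nor methods state the background correction, the summary of probes or the normalization. The 4 columns of differences in each sheet were not used, since they hold the authors' own comparisons, nor were the further rows of that table. No column belonged to a sample of another series.

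Gene levels are means over log2 values of all probe sets with that symbol. Differences between 7 pairs of samples were described by a rule of at least 2-fold, beside the share of all 71 genes past it in the same direction. With 1 sample per condition no test was run, and the number of arrays limits the precision. Named are the 4 genes with all probe sets, the 3 genes nearest in pattern to each, and the listed partners and relatives. 1 gene that this rule names is not reported here. The members and lists were chosen with earlier results of these data known. Alternatives were the median or highest probe set, leaving out probe sets with _s_at, _x_at or _a_at names, the whole-array table, equal medians, quantile normalization, 1.5-fold, and a level of 6.0 in at least 1 sample. Leaving out each probe set in turn was chosen after seeing the data. Promoter windows were matched by symbol to a RefSeq table of build GRCm38.p6, for 3 of the 4 genes. Python 3.11.15, pandas 2.3.3, NumPy 2.4.6 and matplotlib 3.10.9 were used, and the functions were tested on simulated data.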

Additional observations from a re-analysis of the deposited data

How the results depend on the processing

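No paired analysis was possible because no condition has replicates. The whole-array table and leaving out probe sets named _s_at, _x_at or _a_at changed no count and no call of the 4 genes, which says little, since the table holds the same values and all 11 probe sets have plain names. Low levels cannot be read against background, which was not given.

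Taking the probe set with the highest mean over all 5 samples, 1423490_at for Fbxo3 and 1440441_at for Fbxl7, changed the most. Left ventricle entered this choice also for pairs without it, with 1423490_at at 8.48 and 1439890_at at -1.0 there. Against non-failing cardiac fibroblasts the choice gave 2 genes higher and 1 lower in CM, 0 lower in failing cardiac fibroblasts and 1 lower in lung fibroblasts. Fbxo3 turned to 1.98, 0.12 and 0.45 on the log2 scale in these 3 samples, Fbxl7 to 0.21 in CM and 0.0195 in lung fibroblasts, and Fbxo3 in left ventricle against CM to 0.42. It also gave 1 gene lower in lung fibroblasts than in CM, 1 lower than in left ventricle and 1 lower than in failing cardiac fibroblasts, and 1 gene over 6.5 each in left ventricle, lung fibroblasts and non-failing cardiac fibroblasts. The median of the probe sets gave 1 gene lower in lung fibroblasts than in CM and 1 lower than in failing cardiac fibroblasts.

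The shift that made the medians equal was 1.33 for left ventricle and ran from -0.58 for non-failing cardiac fibroblasts to -0.14 for CM. Both scalings gave 1 gene lower in left ventricle than in CM, 1 higher in lung fibroblasts than in left ventricle, 1 lower in lung than in failing cardiac fibroblasts, and 1 over 6.5 in CM. In left ventricle against CM, Fbxo3 turned to 0.10 with equal medians and 0.0721 with quantile normalization, and Fbxl7 to 0.12 and 0.30. Equal medians also gave 1 gene over 6.5 in left ventricle and 1 in failing cardiac fibroblasts, and quantile normalization 1, Fbxl19 at 2.47, higher in lung fibroblasts than in non-failing cardiac ones. At 1.5-fold, 2 genes were higher and 2 lower in lung fibroblasts than in CM, and 4 lower than in failing cardiac fibroblasts. A level of 6.0 in at least 1 sample left 0 genes higher in left ventricle than in CM. Leaving out 1 probe set of Fbxo3 or Fbxl7 ended 10 and added 4 calls among 63 combinations with a pair of samples, and only without 1439890_at did a called difference turn its sign, that of Fbxl7 in left ventricle against CM, to 0.62. Why the scalings and summaries differ was not tested.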
